A study of Homo sapiens with 3 samples.

Results

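The genes described here are 47 human genes of DNA replication, chosen by name: the subunits that recognise and license replication origins, the replicative helicase, the polymerases, clamp and ligase of the fork, and the enzymes that supply nucleotides and chromatin behind it. Each of the 47 names matched 1 of the 58735 genes in the deposited tables, and all 47 had a mean of at least 1 CPM (counts scaled to a common library size), as did 13984 genes in all. Their RNA was sequenced from A549, an established human lung adenocarcinoma line grown in F12K medium with serum, as 1 control library (Control-sh) and 1 library for each of 2 shRNAs against the DEAD-box RNA helicase DDX24 (DDX24-sh1 and DDX24-sh2). According to the study's methods, the shRNAs were delivered in lentiviral pLKO.1 and infected cells were selected and kept in puromycin, so every culture, the control included, carried a vector and had gone through selection. The methods name an empty pLKO.1 vector as the control and a figure legend names a control shRNA, and which of these the control library holds is not given in the sources used here. The Control-sh library summed to 17218884 counts, the DDX24-sh1 library to 18337471 and the DDX24-sh2 library to 17847190, and values of a gene in all 3 are given below in this order. With 1 library per condition there was no replicate and no test between conditions, and every interval below is an exact 95% interval for counting error, which does not cover differences between cultures.

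The names of the shRNA libraries were not the same in the 2 kinds of deposited tables. Over the 11641 genes with at least 50 counts in every library, the deposited FPKM (a length- and depth-scaled level) times gene length over count was constant to within 1% for 100% of genes when the FPKM labelled DDX24-sh2 was set against the counts labelled DDX24-sh1, and likewise for the other pair. Under matching labels this held for 5.33% and 5.32% of genes. The names used here are those of the count tables, and which label is right was not resolved, so every statement on the direction between the shRNAs depends on it. The cells carried the keratins and detoxifying enzymes of the line, with 64704, 69499 and 63926 counts of KRT8 and 37796, 43887 and 42529 of AKR1B10. Other markers of these kinds differed between the libraries: the keratin gene KRT19 had 1001, 2251 and 2728 counts, the aldehyde dehydrogenase gene ALDH3A1 15912, 23949 and 29243, and the cadherin gene CDH1 538, 358 and 261. The lung lineage factor NKX2-1 and the leukocyte genes PTPRC and CD3E were at 0 in all 3 libraries, which at these totals allows up to 3 counts each, while the leukocyte marker CD14 had 139, 108 and 75 counts. The surfactant gene SFTPC had 3, 4 and 4 counts, and the epithelial adhesion gene EPCAM 32, 29 and 29.

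As background, replication origins are licensed in G1, when the origin recognition complex, CDC6 and CDT1 load the ring of MCM2 to MCM7 onto DNA. Geminin (GMNN) keeps loading from happening again later. In S phase CDC45 and the GINS complex turn the ring into an active helicase, polymerase alpha-primase lays primers, polymerases epsilon and delta extend them, and PCNA, loaded by replication factor C, holds the polymerases on DNA. Many of these genes are known E2F targets that are transcribed around the entry into S phase, so in growing tumour cells such as A549 their RNA follows how the culture is cycling.

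In DDX24-sh1 most replication genes lay slightly below the control, whereas in DDX24-sh2 they were spread around it. The median log2 ratio of the 47 members to Control-sh was -0.18 for DDX24-sh1 (middle 50% of members -0.28 to -0.035) and 0.022 for DDX24-sh2 (-0.089 to 0.29), where all 13984 genes had medians of -0.021 and -0.026. Of the members, 37 were below the control in the first library, where 52.6% of all genes were, and 10 above it (47.4%). In the second 21 were below, where 53.0% of all genes were, and 26 above. Few members were far from the control. Past 1.5-fold, the size used here to call a difference, CDT1 was the 1 member lower in DDX24-sh1, where 8.25% of all genes were, and POLE2 the 1 member higher, where 7.59% were. In DDX24-sh2, RRM2 and POLE2 were past 1.5-fold higher, with a background of 8.60%, and 0 members were lower, with 9.51%. With libraries scaled by total counts without mitochondrial genes, GINS3, MCM10 and TYMS joined them, making 5 members higher in DDX24-sh2, where 10.3% of all genes were. With the FPKM matched to the counts, RRM2 was the 1 member higher, where 7.86% of all genes were. The same held under a filter of 10 CPM, which leaves out POLE2, and the share of all genes under that filter is not given here. With TMM scaling the members' shares past 1.5-fold were thus below those of all genes in each direction, and without mitochondrial genes the share higher in DDX24-sh2 was near that of all genes. Past 2-fold there were 0 members in either library, where 2.32% of all genes were higher and 2.27% lower in DDX24-sh1, and 2.89% and 3.07% in DDX24-sh2. Summed over the members, the libraries held 3047, 2726 and 3225 CPM after TMM scaling, and 0.302%, 0.272% and 0.326% of their unscaled counts. Both ratios were taken against the same control library. In bulk RNA, fewer cells in S phase and less RNA per such cell cannot be told apart.

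DDX24 itself, the target of the shRNAs, on chr14:94048291-94081245 (minus strand, GRCh38), had 2010, 637 and 765 counts, or 29.6% and 36.0% of the control after scaling, with log2 ratios of -1.75 (-1.89 to -1.63) and -1.47 (-1.60 to -1.35). The libraries labelled as knockdowns were both low in the target. OTUB2, which overlaps DDX24 on the opposite strand, had 144, 219 and 260 counts.

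E2F words were more frequent in the promoters of the members than in promoters at large, although most member promoters held none. RefSeq promoters of 300 bases (250 before the start site and 50 after it, GRCh38.p14) were matched for 41 of the 47 members, 53 promoters in all, and searched on both strands for the E2F words TTTCCCGC, TTTCGCGC, TTTGCCGC and TTTGGCGC. No promoter was matched for MCM4, MCM5, GINS4, POLD3, RPA2 and RPA3, so these members were not searched. At least 1 word was found in 21 of the 53 member promoters (39.6%), against 3.31% of all 35116 promoters and 4.79% of the 14961 promoters of genes at 1 CPM or more. The words fell at 24 separate places, since overlapping words on both strands were joined. The shorter CHR words TTTGAA and TTCGAA, known from genes of G2 and mitosis, were in 3.77% of member promoters, 16.4% of all promoters, 11.7% of those of genes at 1 CPM or more and 66.7% of the 54 promoters of the mitotic genes listed further on, which held an E2F word in 7.41%. An E2F word was in 25% of the promoters of the other replication genes and 21.4% of those of the E2F and RB regulators, both listed further on. CCAAT was in 60.4% and the GC box GGGCGG in 75.5% of member promoters, against 34.6% and 45% of all and 34.1% and 66% of those of genes at 1 CPM or more. Neither was highest in the members: CCAAT was in 68.5% of mitotic promoters and the GC box in 80.8% of those of the other replication genes. A match is a description of the letters and not a bound site. The windows below show, as examples, the helicase subunits with a word (both places in MCM6, and the place nearest the start site in MCM3 and MCM7) and 5 other members whose values are described singly further on. Each is written 5′ to 3′ on the strand of the gene, with the E2F word in capitals.
MCM2, chr3:127598404-127598433, plus strand: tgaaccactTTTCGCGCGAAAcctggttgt
MCM3, chr6:52284730-52284755, minus strand: ttcggaagtTTTCGCGCcggggtgga
MCM6, chr2:135876575-135876604, minus strand: ggctttgcaTTTGGCGCGAAAtccctttcc
MCM6, chr2:135876513-135876542, minus strand: ttggtcaggTTTGGCGCGAAAtctccagct
MCM7, chr7:100101390-100101415, minus strand: ggggcgacgTTTCGCGCcaatttcgg
CDT1, chr16:88803745-88803770, plus strand: agggcgcccGCGGGAAAtttggcggg
GMNN, chr6:24775324-24775349, plus strand: tgggtcggtTTTGGCGCgctctcact
POLE2, chr14:49688203-49688228, minus strand: gcggcggtgGCGCCAAAtcgcaaata
GINS3, chr16:58392457-58392482, plus strand: tccccgggcGCGGGAAAcgagtttca
PCNA, chr20:5126665-5126690, minus strand: gcgtcagggGCGGGAAAaggcgtgcg
In MCM2 the word TTTCGCGC overlaps its own copy on the other strand in a run of 12 bases, at both places in MCM6 TTTGGCGC overlaps TTTCGCGC on the other strand in such a run, and in CDT1, POLE2, GINS3 and PCNA it is read on the opposite strand. No E2F word was in the promoter windows of RRM2 or MCM10. For the 20 members with a word the median log2 ratio to the control was -0.17 in the DDX24-sh1 library and 0.25 in the DDX24-sh2 library, and for the 21 with a promoter and no word -0.20 and -0.028. Between the shRNAs the medians were 0.31 with a word and 0.21 without. The ranges of the 2 sets overlapped in each comparison, and whether the sets differ was not tested.

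**Figure D1:**
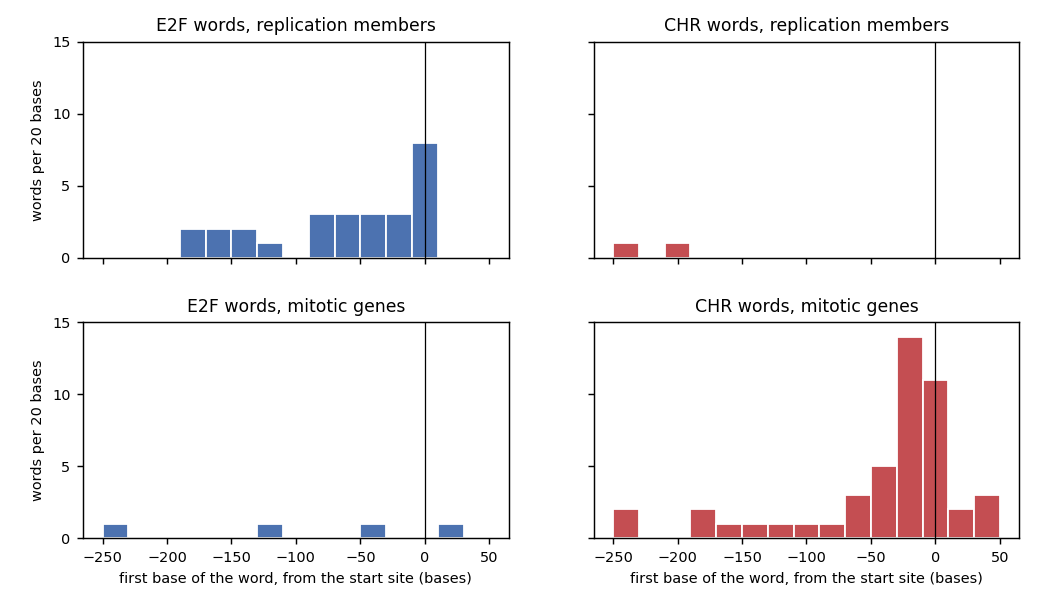
First base of each E2F word (left) and CHR word (right) in the promoters of the replication members (top) and of the mitotic genes (bottom), in bases from the start site (0), with the number of words per 20 bases on the vertical axis. Of 27 E2F word occurrences in member promoters, overlapping ones counted separately, 17 began within 60 bases before the start site or after it.

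Levels differed more between members than between libraries. Per kilobase of gene length, PCNA, the sliding clamp, was the most abundant member in every library, with 148, 157 and 195 CPM per kilobase. POLA2, the second subunit of polymerase alpha, was the least abundant, with 1.32, 1.21 and 1.57. The length used is the union of all annotated exons of a gene, which was so for all 47 members and is longer than most single transcripts, so levels per kilobase are low for genes with many transcripts. By counts the members ranged from 119 (POLE2) to 4470 (MCM7) in the control, which sets the width of the counting intervals given with each ratio.

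**Figure D2:**
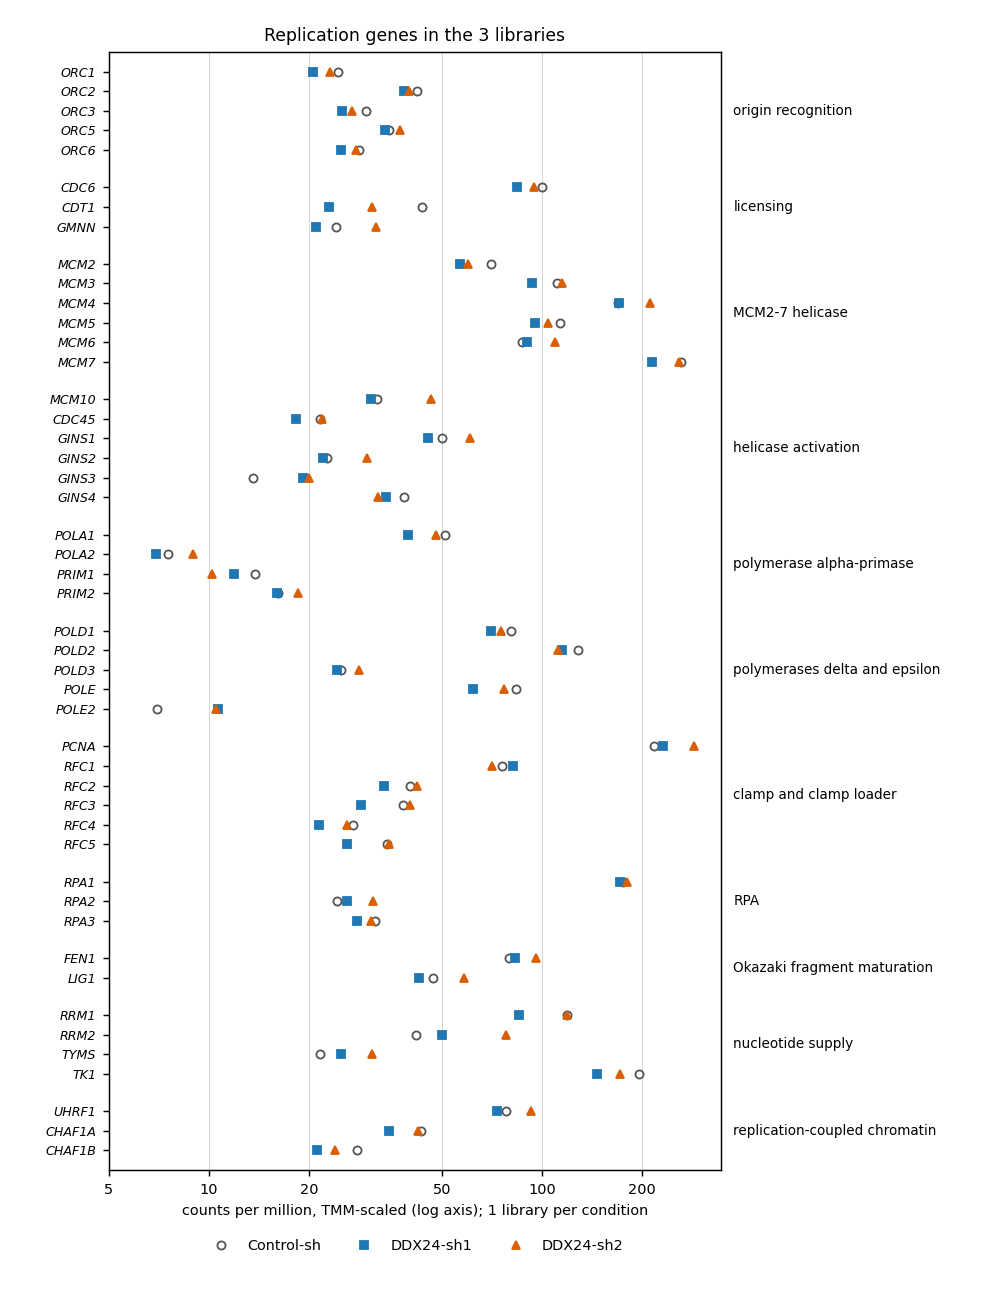
Level in CPM of the 47 members in Control-sh (open circles), DDX24-sh1 (squares) and DDX24-sh2 (triangles), on a log axis and grouped by role. The 3 libraries lie close together for most genes, while CDT1 lies lower and POLE2 and GINS3 higher in both shRNA libraries than in the control.

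The origin recognition complex marks replication origins. Its 5 members ORC1, ORC2, ORC3, ORC5 and ORC6 had 376 to 706 counts in DDX24-sh1 and 416 to 717 in the control, and log2 ratios to the control of -0.24 to -0.042 (DDX24-sh1) and -0.14 to 0.11 (DDX24-sh2). ORC1, the subunit known to be made anew each cycle, had 416, 376 and 417 counts and ratios of -0.24 (interval -0.45 to -0.041) and -0.077 (-0.28 to 0.12). The summed counts of the complex were lower by 0.15 log2 units in DDX24-sh1 (-0.23 to -0.075), and for DDX24-sh2 the interval held 0 (-0.11 to 0.041). ORC4, the remaining large subunit, had 641, 742 and 649 counts.

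Of all 47 members, the licensing gene CDT1 had the lowest ratio to the control in both shRNA libraries. CDT1 (chr16:88803213-88809258, plus strand, GRCh38), which brings the helicase to origins and is destroyed in S phase, had 744, 420 and 556 counts. Both shRNA libraries were lower, at 52.7% and 70.7% of the control, with log2 ratios of -0.92 (-1.10 to -0.75) and -0.50 (-0.66 to -0.34). GMNN, which encodes the inhibitor of CDT1, had 411, 383 and 571 counts. Its ratios were -0.20 (-0.41 to 0.0027) for DDX24-sh1 and 0.39 (0.21 to 0.58) for DDX24-sh2, so the loader and its inhibitor lay on opposite sides of the control in DDX24-sh2. CDC6, the partner of CDT1 in loading, had 1706, 1535 and 1713 counts and was lower in DDX24-sh1 (-0.25, -0.35 to -0.15), while in DDX24-sh2 its interval held 0 (-0.17 to 0.023).

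The helicase subunits MCM2 to MCM7 stand in equal number in the ring, but against the control their RNA levels did not shift together. In DDX24-sh1, MCM2 (1201, 1040 and 1086 counts), MCM3 (1890, 1712 and 2073), MCM5 (1938, 1743 and 1877) and MCM7 (4470, 3914 and 4654) were lower by 0.24 to 0.31 log2 units, with intervals below 0. MCM4 (2882, 3107 and 3809) and MCM6 (1488, 1648 and 1977) were not, at 0.0086 (-0.065 to 0.082) and 0.047 (-0.054 to 0.15). The same pair was the highest of the subunits in DDX24-sh2, at 0.32 (0.25 to 0.39) and 0.33 (0.23 to 0.43), where MCM2 was the lowest at -0.23 (-0.35 to -0.11). TPRA1, which overlaps MCM2 on the opposite strand, had 1187, 904 and 803 counts, and its part in the MCM2 counts was not tested. The subunits thus did not keep a fixed ratio to each other across the libraries, judged by counting error only. Between the shRNAs all 6 were higher in DDX24-sh2, by 0.081 to 0.31 log2 units, where 48.2% of all genes were higher. For MCM2 the interval of this difference held 0 (-0.0425 to 0.21). None of the differences from the control reached 1.5-fold.

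The genes that turn the loaded ring into a moving helicase were, except for GINS3, below the control or within counting error of it in DDX24-sh1. In DDX24-sh2, 4 of the 6 had intervals above 0, where 23.6% of all genes did. MCM10 (chr10:13161554-13211104, plus strand), needed for origin firing, had 547, 561 and 838 counts in the 3 libraries, and ratios of -0.063 (-0.24 to 0.11) and 0.53 (0.38 to 0.69). GINS1 (857, 831 and 1101 counts) and GINS2 (387, 403 and 537), subunits of the GINS complex, were likewise highest in DDX24-sh2, at 0.28 (0.15 to 0.41) and 0.39 (0.20 to 0.58), and GINS2 overlaps GSE1 (1983, 1371 and 1616 counts) on the opposite strand. GINS3 (chr16:58295080-58406144, plus strand) did not follow them: its 231, 351 and 361 counts were higher in both shRNA libraries, at 0.50 (0.26 to 0.75) and 0.56 (0.32 to 0.81). The second ratio is just under the limit of 1.5-fold (0.585 on the log2 scale) and passed it with total counts as the scaling (0.59). GINS4 was lower in both, with 658, 621 and 580 counts, -0.18 (-0.34 to -0.023) and -0.26 (-0.43 to -0.10). The 4 subunits of 1 complex thus lay on both sides of the control. CDC45, the third part of the active helicase beside the ring and GINS, had 367, 335 and 394 counts and was lower in DDX24-sh1 (-0.23, -0.45 to -0.014).

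Polymerase alpha-primase starts each new strand. POLA1, its catalytic subunit, had 870, 723 and 867 counts and was lower in DDX24-sh1 (-0.37, -0.51 to -0.22). The primase subunit PRIM1 had 234, 217 and 184 counts and was lowest in DDX24-sh2 (-0.42, -0.71 to -0.14), and PRIM1 overlaps NACA, with 5313, 5270 and 6121 counts, on the same strand. POLA2 and PRIM2 had 127 to 334 counts, and their intervals held 0 against the control in both shRNA libraries.

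For the polymerases of the fork, the catalytic subunit POLE and its partner POLE2 lay on opposite sides of the control in both shRNA libraries. POLE had 1424, 1135 and 1389 counts and ratios of -0.43 (-0.54 to -0.31) and -0.12 (-0.22 to -0.0090). POLE2 (chr14:49643555-49688422, minus strand), the least counted member in the control, had 119, 195 and 190 counts, or 6.97, 10.7 and 10.5 CPM, and ratios of 0.60 (0.28 to 0.95) and 0.59 (0.26 to 0.94). These ratios lie just past 1.5-fold, and their intervals reach well below it. Polymerase delta copies the lagging strand. POLD2 (2195, 2105 and 2017 counts) was lower in both shRNA libraries, at -0.16 (-0.25 to -0.073) and -0.20 (-0.29 to -0.11). POLD1, the catalytic subunit (1380, 1286 and 1363), was lower in DDX24-sh1 (-0.20, -0.31 to -0.091), and its interval held 0 in DDX24-sh2 (-0.21 to 0.010). For POLD3 (426, 444 and 509) both intervals held 0.

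The clamp and the small subunits of its loader differed from each other. PCNA had 3710, 4231 and 5175 counts and was higher in both shRNA libraries, at 0.090 (0.026 to 0.15) and 0.40 (0.34 to 0.46). The small loader subunits were lower in DDX24-sh1: RFC2 (686, 613 and 763 counts) was at -0.26, RFC3 (652, 523 and 727) at -0.42, RFC4 (462, 391 and 470) at -0.34 and RFC5 (584, 474 and 625) at -0.40, with intervals below 0 for all 4. In DDX24-sh2 the same 4 lay between -0.056 and 0.076, and all 4 intervals held 0. RFC1, the large subunit, had 1291, 1493 and 1281 counts. It was slightly higher in DDX24-sh1 (0.11, 0.0014 to 0.22), as PCNA was, while in DDX24-sh2 its interval held 0 (-0.20 to 0.021). RFC4 overlaps EIF4A2 (2176, 1851 and 2482 counts) and RFC5 overlaps WSB2 (1581, 2238 and 1982), both on the opposite strand, and strand use in counting is not given in the sources used here.

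Replication protein A coats single-stranded DNA. RPA1, the large subunit, had 2985, 3135 and 3238 counts and intervals that held 0 in both comparisons with the control. RPA2 was higher in DDX24-sh2 (413, 476 and 563 counts, 0.36, 0.18 to 0.55), and RPA3 had 539, 510 and 555 counts and was lower in DDX24-sh1 (-0.18, -0.36 to -0.0023). Of the 2 genes that finish Okazaki fragments, the nuclease gene FEN1 had 1355, 1521 and 1737 counts and the ligase gene LIG1 803, 782 and 1052. Both were higher in DDX24-sh2, at 0.28 (0.17 to 0.38) and 0.31 (0.17 to 0.44), and within counting error of the control in DDX24-sh1. FEN1 overlaps FADS2, with 11699, 18255 and 12749 counts, on its own strand.

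In DDX24-sh2 the genes of nucleotide supply gave the widest range of log2 ratios within a role, from -0.18 to 0.89, while in DDX24-sh1 that of polymerases delta and epsilon was wider (-0.43 to 0.60, against -0.48 to 0.25). Of ribonucleotide reductase, which makes deoxynucleotides from ribonucleotides, the members include the large subunit RRM1 and the small subunit RRM2, whose supply follows S phase. RRM2 (chr2:10120698-10131419, plus strand) had 715, 914 and 1403 counts, and was the highest member against the control in DDX24-sh2, at 186% of its level (0.89, 0.76 to 1.02). In DDX24-sh1 it was at 0.25 (0.11 to 0.40). RRM1 had 2029, 1561 and 2149 counts, lower in DDX24-sh1 (-0.48, -0.57 to -0.38) and level with the control in DDX24-sh2 (0.0022, -0.086 to 0.090), so these 2 subunits differed in both libraries. TYMS, which makes thymidylate, had 367, 456 and 556 counts and was higher in both shRNA libraries, at 0.21 (0.012 to 0.42) and 0.52 (0.33 to 0.71). ENOSF1, which overlaps TYMS on the opposite strand, had 383, 382 and 510. The thymidine kinase gene TK1, which salvages thymidine, had 3327, 2674 and 3096 counts and was lower in both (-0.41, -0.49 to -0.34, and -0.18, -0.26 to -0.11).

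Chromatin is rebuilt behind the fork by the CAF-1 subunits CHAF1A and CHAF1B, and UHRF1 takes part in carrying DNA methylation over to the new strand. CHAF1A (739, 633 and 764 counts) was lower in DDX24-sh1 (-0.32, -0.48 to -0.17), and CHAF1B (475, 387 and 433) was lower in both shRNA libraries, at -0.39 (-0.59 to -0.20) and -0.21 (-0.41 to -0.023). CHAF1A overlaps UBXN6 on the opposite strand (1213, 1284 and 991 counts), and CHAF1B overlaps MORC3 on its own strand (443, 406 and 455). UHRF1 had 1329, 1341 and 1678 counts and was higher in DDX24-sh2 (0.26, 0.15 to 0.36).

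Counted over the members, the interval in DDX24-sh1 lay below 0 for 24 of the 47, where it did for 29.5% of all genes, above 0 for 6 (23.6% of all genes) and held 0 for 17. In DDX24-sh2 it lay below 0 for 9, where it did for 30.8% of all genes, above 0 for 15 (23.6%) and held 0 for 23. Past a lower limit of 0.32 on the log2 scale, 10 members were lower in DDX24-sh1 (20.4% of all genes) and 2 higher (17.2%), and 2 were lower in DDX24-sh2 (21.3%) and 10 higher (17.7%). These counts measure depth as well as difference, since a deep gene has a narrow interval.

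Set against each other, the 2 shRNA libraries differed in the same direction for most replication genes. In DDX24-sh2, 42 of the 47 members were above DDX24-sh1, where 48.2% of all genes were above it, and the median log2 ratio was 0.26 (middle 50% of members 0.13 to 0.34), against -0.011 for all genes. The summed counts of the members had a log2 ratio of 0.24 (0.23 to 0.26). All but 3 of the differences were under 1.5-fold: RRM2 (0.64, 0.52 to 0.76), MCM10 (0.60, 0.44 to 0.75) and GMNN (0.59, 0.41 to 0.79) passed it, with a background of 5.33%, near the members' own share, and 0 members were past 1.5-fold lower, with 4.84%. Past 2-fold there were 0 members, with 1.30% of all genes higher and 1.01% lower. Past a log2 ratio of 0.32, 13 members were higher (13.8% of all genes) and 0 lower (14.5%). The counting interval lay above 0 for 30 members (21.0% of all genes) and below 0 for 1 (23.8%). The 5 members below 0 were RFC1 (-0.20, -0.31 to -0.093), the 1 whose interval lay below 0, and PRIM1, GINS4, POLD2 and POLE2, whose intervals held 0. This comparison uses the same 2 libraries as the comparisons with the control and is not independent of them, and the members share a cell cycle and a library, so their agreement is not repeated evidence. Reads on mitochondrial genes took 4.36%, 5.13% and 7.04% of counts, and with libraries scaled by total counts without these genes the median between the shRNAs was 0.31.

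By role, every group of members was higher in DDX24-sh2 than in DDX24-sh1 in its summed counts, with an interval above 0. The difference was widest for nucleotide supply (306 and 399 CPM, 0.38, 0.33 to 0.43) and helicase activation (170 and 211 CPM, 0.32, 0.25 to 0.38). It was narrowest for RPA (225 and 241 CPM, 0.099, 0.037 to 0.16), polymerases delta and epsilon (0.10, 0.046 to 0.16) and origin recognition (0.12, 0.040 to 0.20). Whether the roles differ from each other was not tested.

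Other replication genes, a list of 45 of which 44 had a mean of at least 1 CPM, had medians near those of the members, at -0.17 and 0.086 against the control and 0.28 between the shRNAs. RNASEH2A, below this level, had 7, 13 and 24 counts. In DDX24-sh1, 3 of the 44 were past 1.5-fold lower, a share near the 8.25% of all genes, and 0 higher (7.59%). These were DONSON, a fork-associated factor (265, 157 and 270 counts, -0.85, -1.15 to -0.56), TOP2A, the topoisomerase that separates daughter strands and peaks in G2 (10149, 6209 and 9466 counts, -0.81, -0.85 to -0.76), and RNASEH2B (438, 307 and 359 counts, -0.61, -0.83 to -0.40). DONSON overlaps SON, with 3605, 4045 and 3908 counts, on the opposite strand. In DDX24-sh2, CDC25A, the phosphatase that activates CDK2 (196, 283 and 354 counts, 0.77, 0.52 to 1.03), and the histone chaperone gene ASF1B (321, 415 and 556 counts, 0.71, 0.51 to 0.91) were past 1.5-fold higher and 0 were lower, where 8.60% and 9.51% of all genes were. The kinase that fires origins, CDC7 with DBF4, stood below the control in DDX24-sh1, with -0.51 (-0.81 to -0.23) for CDC7 (231, 173 and 218 counts) and -0.55 (-0.75 to -0.35) for DBF4 (479, 351 and 491). In DDX24-sh2 both intervals held 0 (-0.44 to 0.11 and -0.23 to 0.14). Of the 44 genes, 34 lay below the control in DDX24-sh1, where 52.6% of all genes did, and 10 above it (47.4%). Between the shRNAs, DONSON, ATAD5, which unloads PCNA (219, 198 and 316 counts), DTL, which marks CDT1 for destruction (593, 472 and 733), and TOP2A were past 1.5-fold higher in DDX24-sh2 and 0 lower (5.33% and 4.84% of all genes).

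Of 23 regulators of E2F and RB, 22 had a mean of at least 1 CPM, with medians of -0.20 (DDX24-sh1), -0.090 (DDX24-sh2) and 0.10 (between the shRNAs). LIN37, below this level, had 10, 12 and 13 counts. Past 1.5-fold higher were 1, 3 and 2 of the 22, where 7.59%, 8.60% and 5.33% of all genes were, and 0 were lower, where 8.25%, 9.51% and 4.84% were. CCNE1, cyclin E1, which drives entry into S phase, had 258, 526 and 686 counts. It was higher in both shRNA libraries, at 0.92 (0.71 to 1.15) and 1.32 (1.12 to 1.54), and was the regulator furthest from the control. E2F1, an activator of these genes, had 1073, 1042 and 1059 counts. After scaling, E2F1 was lower in DDX24-sh1 (-0.14, -0.27 to -0.018), and in DDX24-sh2 its interval held 0 (-0.22 to 0.024). The repressor gene E2F7 had 165, 144 and 270 counts and was past 1.5-fold higher in DDX24-sh2 against the control (0.62, 0.34 to 0.92) and against DDX24-sh1 (0.92, 0.63 to 1.23). CCNE2, cyclin E2, with 32, 25 and 52 counts, was past 1.5-fold higher in DDX24-sh2 than in either of the others (0.59, -0.043 to 1.30, against the control, an interval that holds 0, and 1.02, 0.36 to 1.83, against DDX24-sh1). It overlaps the deeper genes INTS8 (988, 1108 and 1064 counts) and NDUFAF6 (233, 241 and 279) on the opposite strand, and their part in its counts was not tested.

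Mitotic genes, which follow the replication genes in the cycle, had the same order of medians with a wider gap. The 50 genes had medians of -0.46 (DDX24-sh1), 0.036 (DDX24-sh2) and 0.45 (between the shRNAs), and 49 of 50 were above DDX24-sh1 in DDX24-sh2. In DDX24-sh1, 11 were past 1.5-fold lower and 0 higher, in DDX24-sh2 2 lower and 1 higher, and between the shRNAs 12 higher and 0 lower. Of all genes, 8.25% were lower and 7.59% higher in the first comparison, 9.51% and 8.60% in the second, which the counts for DDX24-sh2 do not reach, and 4.84% and 5.33% between the shRNAs. The 5 furthest below the control in DDX24-sh1 were the kinetochore gene NUF2 (449, 179 and 282 counts, -1.42, -1.68 to -1.17), the kinesin gene KIF15 (271, 140 and 205, -1.04, -1.36 to -0.75), the centromere histone gene CENPA (728, 408 and 476, -0.93, -1.11 to -0.76), the centrosome kinase gene NEK2 (851, 488 and 628, -0.90, -1.07 to -0.74) and the cyclin gene CCNB2 (1192, 714 and 968, -0.84, -0.98 to -0.70). CENPA overlaps SLC35F6 (3029, 2187 and 1998 counts) and KIF15 overlaps TMEM42 (182, 141 and 154), both on the same strand. CENPE, a kinetochore motor, had 243, 174 and 612 counts and was the mitotic gene furthest apart between the shRNAs (1.82, 1.59 to 2.08). It was followed by CENPF (0.93), HMMR (0.89), SMC4 (0.77) and KIF18A (0.74). The difference between the replication and mitotic lists was not tested.

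**Figure D3:**
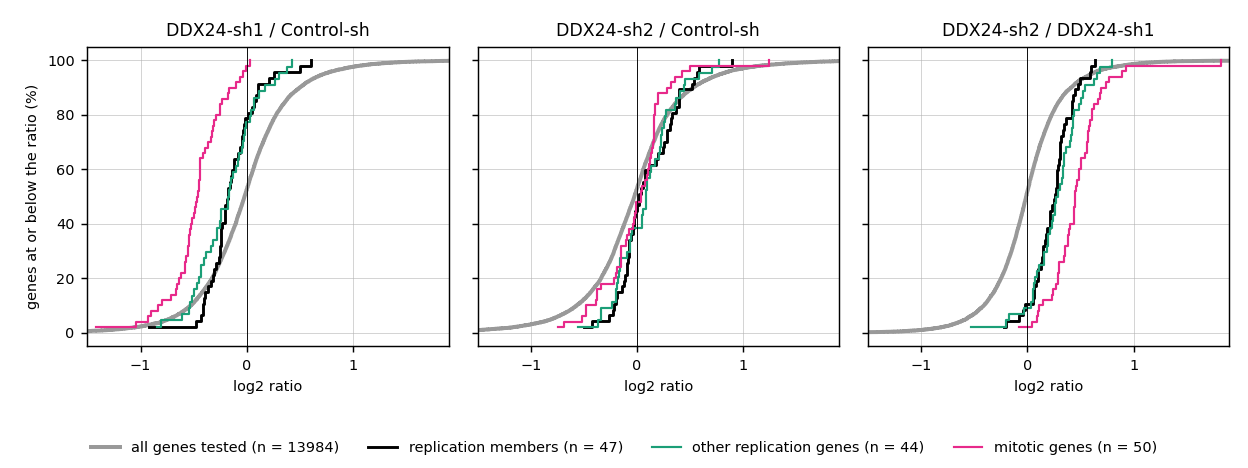
Share of genes (vertical axis, percent) at or below each log2 ratio (horizontal axis) for DDX24-sh1 against Control-sh, DDX24-sh2 against Control-sh and DDX24-sh2 against DDX24-sh1, in all 13984 genes tested, the 47 replication members, 44 other replication genes and 50 mitotic genes. Ratios beyond the axis are not drawn. At the median the members lie left of all genes in DDX24-sh1 (-0.18 and -0.021) and right of them between the shRNAs (0.26 and -0.011), the mitotic genes lie further out in both, and the tails of all genes reach beyond those of the members.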

How the data were processed

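The authors deposited raw counts per gene and FPKM per gene for each library. Per the labels, the processing notes name Bowtie2 2.0.6, TopHat2 2.0.9, Cufflinks 2.1.1 and Cuffdiff 2.1.1 without a role, and the counter, the strand setting and the treatment of reads with several matches are not given in the sources used here. The start and end of all 58735 genes equal those of GENCODE 29 on GRCh38. From the deposited counts, log2 CPM was computed with edgeR 4.0.16 in R 4.3.3 (TMM scaling, prior count of 2), and the background was limited to genes averaging 1 CPM or more. Ratios carry exact 95% conditional binomial (Clopper-Pearson) intervals from 2 counts (scipy 1.17.1). No molecular identifiers are named in the sources used here, so reads may not be independent molecules and the intervals cover counting error only. A difference was called at 1.5-fold. The precision follows depth: for POLE2 with 119 counts in the control the interval in DDX24-sh1 ran from 0.28 to 0.95, and for MCM7 with 4470 counts from -0.35 to -0.23. The authors' FPKM, as log2(FPKM + 0.1), served as an alternative.

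The genes named were all 47 members and DDX24, and from the other lists those past 1.5-fold, at most the 5 largest per list and comparison. ORC4, CDC7, DBF4 and E2F1, partners of members or of named genes, were added after their values were seen, and RNASEH2A and LIN37 as the listed genes below the filter. Some of the genes overlapping a named gene are named besides, and other overlaps are not. Markers of the line, of lung and of leukocytes, chosen as examples of their lists, are also named. The members and lists were chosen with earlier results of these data known. Alternatives were library totals with and without mitochondrial genes in place of TMM, size factors from DESeq2 1.42.0, a prior count of 0.5, the FPKM, other filters and fold limits, and pseudogenes added to their gene. The 15 named pseudogenes of 8 members held 0, 0 and 1 counts in the 3 libraries. Opposite-strand genes overlap 20 members and same-strand genes 14. The interval and call steps were run on simulated counts with counting error only and planted changes of 2-fold or more. Variation between cultures and changes at the limit of 1.5-fold were not simulated. Promoter sequences are from RefSeq (GRCh38.p14), and matplotlib 3.10.9 (Python 3.11.15) drew the figures.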

Additional observations from a re-analysis of the deposited data

How the results depend on the processing

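DESeq2 size factors moved none of the 63 medians, counts and summed ratios beyond its limits, and leaving out the filter on low counts could not change the 6 counts of members, since all 47 pass it. Another scaling turned the sign of 8 ratios of single members and 3 sums over a role, all small and with counting intervals that held 0. Among them, total counts without mitochondrial genes gave for DDX24-sh2 against the control 0.047 for MCM7 (-0.022 with TMM scaling), 0.034 for origin recognition (-0.036) and 0.026 for polymerase alpha-primase (-0.044). With the FPKM as labelled, which exchanges the shRNAs, the members' median was 0.030 for DDX24-sh1 against the control, -0.16 for DDX24-sh2 and -0.26 between them. The direction between the shRNAs thus depends on the label. With the FPKM matched to the counts, 1 member in place of 2 was past 1.5-fold higher in DDX24-sh2, where 7.86% of all genes were. Scaling by total counts without mitochondrial genes, which shifted the median of all genes to at most 0.043, moved the number higher in DDX24-sh2 to 5. It also moved the summed ratio of all members to -0.14, 0.15 and 0.29 (DDX24-sh1, DDX24-sh2, between them), and total counts gave 0.11 and 0.26 for the last 2. By role it gave, for DDX24-sh2 against the control, 0.15 for MCM2 to MCM7, 0.31 for helicase activation, -0.031 for polymerases delta and epsilon, 0.28 for the clamp and loader, 0.14 for RPA and 0.15 for nucleotide supply, and between the shRNAs 0.30 for MCM2 to MCM7 and 0.30 for the clamp and loader. When a mean of 10 CPM was required, POLE2 dropped out, and 0 members were past 1.5-fold higher for DDX24-sh1 against 1 for DDX24-sh2. The share of all genes past 1.5-fold under this filter is not given here, so these counts have no background. With the limit lowered to a log2 ratio of 0.32, 2 members were higher and 10 lower in DDX24-sh1, 10 higher and 2 lower in DDX24-sh2, and 13 higher between the shRNAs, shares to be read against those of all genes given above, and at 2-fold 0 in each. Replicate error was not measured with 1 library per condition, and the least counted members, POLE2 and POLA2, have the widest intervals. No paired analysis was possible because each condition had 1 library.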
